A study of Mus musculus with 2 samples.

Results

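The mast cell proteases are granule enzymes that mark mast cells and basophils, and their mRNAs were followed here in single leukemia cells. The members were chosen by gene symbol: 9 of the 31053 genes in the files, namely the chymase-family genes Mcpt1, Mcpt2, Mcpt4, Mcpt8 and Cma1, the carboxypeptidase gene Cpa3, and the tryptase genes Tpsg1, Tpsb2 and Tpsab1. Of these, 6 had 5 CPM or more on average (UMIs of a gene per 1e+06 UMIs of the library). A UMI is a molecular tag that counts 1 captured mRNA once.

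The cells were AE9a leukemia cells, made from fetal liver cells of Usp18+/f mice by retroviral transduction with a truncated AML1-ETO fusion and a GFP marker, and transplanted into C57BL/6 mice. Recipients were injected with oil (label Usp18+/f) or tamoxifen (label Usp18+/Δ) after they had become sick, and GFP+ Lin- c-Kit+ splenocytes were collected by sorting 3 days after injections began. Each library pools 3 mice and each group is 1 library, and tamoxifen itself, the excision and the library cannot be told apart. The question the comparison addresses is how leukemia cells change when 1 copy of Usp18 is deleted, a gene whose product restrains interferon signaling.

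Mast cells store proteases in granules bound to the proteoglycan serglycin and release them on activation. Chymases cut after aromatic residues, tryptases after basic residues, and carboxypeptidase A3 trims the ends of peptides. In mice, Mcpt1 and Mcpt2 are known from mucosal mast cells, Mcpt4, Cma1 (mouse mast cell protease 5) and the tryptases from connective tissue mast cells, and Mcpt8 from basophils. Cpa3 is expressed early, in mast cell and basophil progenitors.

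The targeted gene was examined first. Usp18 had 330 UMIs (5.68 CPM, 95% counting interval 5.09 to 6.33) in the Usp18+/f-labelled library and 1434 UMIs (24.1 CPM, 22.9 to 25.4) in the Usp18+/Δ-labelled library. Its mRNA was thus higher with the label that names a deleted copy. UMIs do not tell a deleted allele from an intact one, and the reason for the higher count was not tested. The paper reports that Isg15, which it reads as a sign of interferon signaling, rose in every cluster after Usp18 suppression. Every ratio below divides the Usp18+/Δ label by the Usp18+/f label. The libraries held 63690481 and 65146263 UMIs in 7281 and 7833 barcodes, of which 6546 and 7073 were kept after filtering, with medians of 8576 and 8023 UMIs. Only 11 kept barcodes occurred in both libraries, and no ratio of a member moved beyond its counting interval without them.

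Markers of other cell types were low apart from the erythroid and basophil genes and Bst2. Of 7 basophil markers, 5 had a mean of at least 5 CPM, and the list summed to 1238 and 1337 CPM. Among them Cd200r3 was at 129 and 132 CPM and Il4 at 54.6 and 45.6 CPM, while Mcpt8 and Prss34 were under 5 CPM. The lymphoid, macrophage and megakaryocyte marker lists each summed to at most 5.98 CPM in either library. Erythroid genes (Hbb-bs, Car1 and 6 others) summed to 6763 and 6943 CPM, and the 6 neutrophil markers to 0.0344 and 22.6 CPM. Of the 4 dendritic cell markers, Siglech and Flt3 were at 0 UMIs and Itgax at 0 and 3 UMIs, while Bst2, which interferon also induces, was at 141 and 254 CPM. The myeloid granule genes that often mark acute myeloid leukemia were near 0, with Mpo at 1 and 0 UMIs and Elane at 0 in both, and so was the pan-leukocyte gene Ptprc at 9 and 14 UMIs. Of 9 mast cell markers fixed for the label check, 8 reached 5 CPM, among them Kit, Ms4a2 (the IgE receptor beta chain), Hdc (histamine synthesis) and Gata2. On that list Cpa3, Cma1, Mcpt4 and Tpsb2 are members themselves, and Fcer1a, Ms4a2 and Hdc are basophil markers too. The count therefore does not separate mast cells from basophils.

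Positions are given on mm10 (GRCm38) from GENCODE vM21. The chymase-family genes lie within 144 kb of chromosome 14. Cma1 (ENSMUSG00000022225) spans chr14:55941451-55944675 on the minus strand, Mcpt1 (ENSMUSG00000022227) chr14:56017971-56020384 on the plus strand, and Mcpt2 (ENSMUSG00000022226) chr14:56042041-56044642 on the plus strand. Mcpt4 (ENSMUSG00000061068) spans chr14:56059629-56062313 and Mcpt8 (ENSMUSG00000022157) chr14:56082166-56085273, both on the minus strand. The tryptase genes lie within 31.2 kb of chromosome 17, Tpsab1 (ENSMUSG00000024173) at chr17:25343245-25345562, Tpsb2 (ENSMUSG00000033825) at chr17:25366305-25369098 and Tpsg1 (ENSMUSG00000033200) at chr17:25369273-25374442. Cpa3 (ENSMUSG00000001865) is alone on chromosome 3, chr3:20215620-20242181, minus strand. All 9 are protein coding, with 5 exons in the longest transcript of each chymase-family gene and 11 in that of Cpa3.

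Because these genes are close copies, the chance that reads of 1 gene were counted for another was read from the transcripts. Mcpt1 and Mcpt4 transcripts were 85.2% identical over 977 aligned bases, Mcpt1 and Mcpt2 81.8% over 962, and Cma1 shared between 61.9% and 67.7% with each of the other chymases. A 3′ library reads the end of the transcript, so each stretch of 50 bases in the last 500 was looked for in the transcripts of all other genes. None of the 451 stretches of Mcpt1, Mcpt2, Mcpt8, Cpa3, Tpsg1, Tpsb2 or Tpsab1 occurred in another gene. Mcpt4 shared 58 of its 451 with Cma2 or Mcpt9, which had 43 and 2 UMIs in the Usp18+/f-labelled library and 81 and 6 in the other, so Mcpt4 values are uncertain to that extent. Cma1 shared 56 with a gene model that is not in the count files. Mcpt1, Mcpt2 and Cpa3 shared none.

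The 250 bases before the start of transcription are shown for 4 members. Over all kept cells Mcpt1 was lower and Cpa3 higher in the Usp18+/Δ-labelled library, and Cma1 was the most abundant. Mcpt4 is shown beside Mcpt1, but its log2 ratio of -0.26 was under 1.5-fold. With at most 5% mitochondrial UMIs per cell, both Mcpt1 and Mcpt4 were reversed, at 0.98 and 1.51. The RefSeq promoter table used here (GRCm38.p6) was matched for 6 of the 9 members, and not for Mcpt2, Tpsb2 and Tpsab1. Capitals mark GATAA, the core letters bound by GATA factors, and TGTGGT, the letters bound by RUNX factors such as the AML1 part of the fusion, on either strand (read as TTATC and ACCACA on the opposite one). The stretches are chr14:56017714-56017963 (plus) for Mcpt1, chr14:56062311-56062560 (minus) for Mcpt4, chr14:55944676-55944925 (minus) for Cma1 and chr3:20242182-20242431 (minus) for Cpa3, each written 5′ to 3′ on the gene's strand.
Mcpt1: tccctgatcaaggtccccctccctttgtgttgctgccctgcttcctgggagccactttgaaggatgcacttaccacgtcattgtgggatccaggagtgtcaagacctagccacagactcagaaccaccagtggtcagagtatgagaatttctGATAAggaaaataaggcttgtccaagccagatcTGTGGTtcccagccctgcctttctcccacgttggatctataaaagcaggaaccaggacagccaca
Mcpt4: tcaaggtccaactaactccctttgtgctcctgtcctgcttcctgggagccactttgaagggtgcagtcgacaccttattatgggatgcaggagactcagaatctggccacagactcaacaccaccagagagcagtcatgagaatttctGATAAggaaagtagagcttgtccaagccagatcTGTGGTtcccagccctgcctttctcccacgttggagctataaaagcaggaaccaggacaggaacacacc
Cma1: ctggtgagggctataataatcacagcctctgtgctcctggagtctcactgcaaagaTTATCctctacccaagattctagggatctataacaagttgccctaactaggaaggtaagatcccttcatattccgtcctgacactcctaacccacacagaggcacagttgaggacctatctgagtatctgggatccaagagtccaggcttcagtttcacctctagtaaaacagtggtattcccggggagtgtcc
Cpa3: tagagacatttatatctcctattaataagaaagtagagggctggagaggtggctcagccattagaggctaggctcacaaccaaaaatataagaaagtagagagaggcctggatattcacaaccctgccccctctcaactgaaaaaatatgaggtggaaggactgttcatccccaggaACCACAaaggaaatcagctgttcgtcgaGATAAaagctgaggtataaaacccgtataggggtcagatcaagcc

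Mcpt1 and Mcpt4 were 86.4% identical over 242 aligned bases of this stretch and held 1 GATAA and 1 TGTGGT each at nearly the same distance, 98 and 65 bases before the RefSeq start of Mcpt1 and 102 and 69 before that of Mcpt4. The GENCODE start of Mcpt1 lies 7 bases further in. Cpa3 held the same pair of motifs in the reverse order, TGTGGT 73 bases and GATAA 45 bases before the start. Cma1 held GATAA at 194 bases and no TGTGGT. Over all 32851 promoter stretches of the same length, GATAA occurred in 22.6% and TGTGGT in 14.0%. The letters TTTCNNTTT, part of the interferon-response element, occurred in 9.37% of all and once among the 6 members searched, 234 bases before 1 of the 2 starts of Tpsg1. The letters TCATGTG, which MITF binds, occurred in 3.25% of all and in none of the 6 members searched. These matches are descriptions of letters and not of binding.

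Cma1 was the most abundant, with 26842 UMIs (462 CPM, 457 to 468) in the Usp18+/f-labelled library and 32238 UMIs (542 CPM, 536 to 548) in the Usp18+/Δ-labelled library, and made up 53.4% and 60.01% of the summed CPM of the 9. Mcpt1 had 10479 UMIs (180.5 CPM, 177 to 184) and 4875 UMIs (81.9 CPM, 79.6 to 84.3). Mcpt2 had 5787 UMIs (99.7 CPM, 97.1 to 102) and 3525 UMIs (59.2 CPM, 57.3 to 61.2). In the first library Mcpt1 was second in the order, with Mcpt2 and Cpa3 next to each other within their counting intervals; in the second library Cpa3 took that place. These compare UMIs, 1 per 3′ end, and so do not depend on transcript length.

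Cpa3 had 5856 UMIs (100.8 CPM, 98.3 to 103.5) in the Usp18+/f-labelled library and 11320 UMIs (190.2 CPM, 187 to 194) in the Usp18+/Δ-labelled library. The lower members were Mcpt4 with 746 and 640 UMIs (12.8 and 10.8 CPM), Tpsg1 with 255 and 684 (4.39 and 11.5 CPM), Mcpt8 with 171 and 154 (2.94 and 2.59 CPM), Tpsab1 with 138 and 144 (2.38 and 2.42 CPM) and Tpsb2 with 16 and 145 (0.276 and 2.44 CPM). A count of 0 would allow up to 3 UMIs, or 0.0517 and 0.0504 CPM, so each of the 9 was detected in both libraries.

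**Figure D1:**
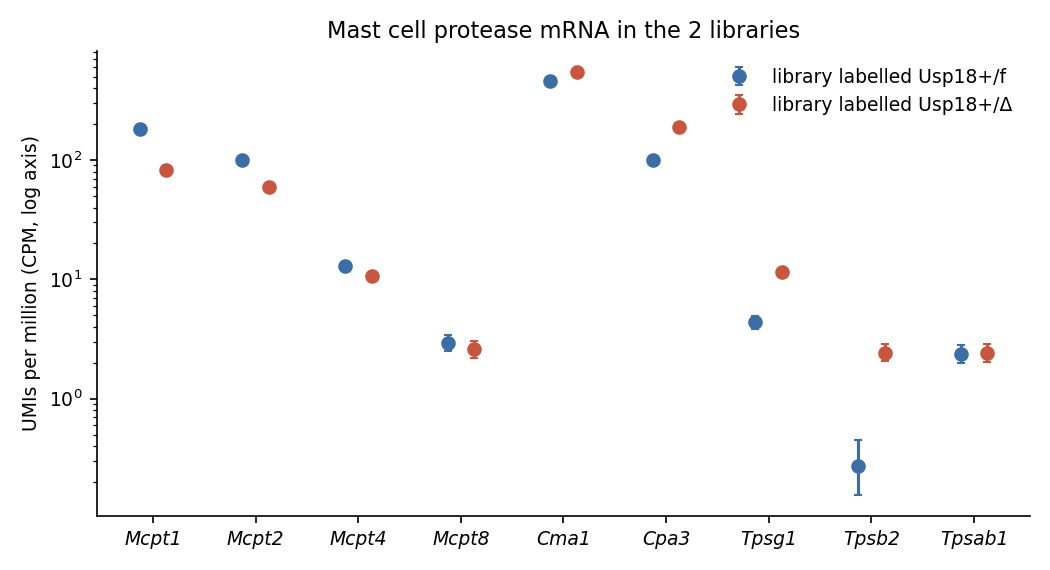
Level of each member in the 2 libraries, in CPM on a log axis; points are 1 library each and bars are exact Poisson 95% intervals, which cover counting error only. Mcpt1 and Mcpt2 sit lower, and Cpa3, Tpsg1 and Tpsb2 higher, in the Usp18+/Δ-labelled library, while Mcpt8 and Tpsab1 overlap.

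The members went in opposite directions between the libraries. Mcpt1 was 2.20-fold lower in the Usp18+/Δ-labelled library, a log2 ratio of -1.14 (-1.19 to -1.09), and Mcpt2 was 1.68-fold lower at -0.75 (-0.81 to -0.69). Cpa3 was 1.89-fold higher at 0.92 (0.87 to 0.96), and Tpsg1 2.62-fold higher at 1.39 (1.18 to 1.60). Tpsg1 reached a mean of 5 CPM only through the Usp18+/Δ-labelled library. These are values over all kept cells, and those of Mcpt1 and Mcpt2 reversed, to 0.98 and 1.04, in the cells with at most 5% mitochondrial UMIs. Those of Cpa3 and Tpsg1 were 0.40 and -0.14 without the cells of cluster 1, 1 of 9 groups of cells formed from other genes, so that neither was then 1.5-fold higher. Thus 2 of the 6 members with a mean of at least 5 CPM were at least 1.5-fold higher, where 1.17% of 8879 genes were, and 2 were at least 1.5-fold lower, where 0.18% of genes were. The count of higher members rests on Cpa3 and, by way of that filter, on Tpsg1. The median log2 ratio was -0.014 over these 6 and 0.0074 over all 8879 genes, and the summed CPM of the 9 members hardly differed, at 866 and 903. With 1 library per group no test is possible and these intervals cover counting error only, not the difference between mice or libraries.

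The remaining members differed less or rest on few cells. Cma1 had a log2 ratio of 0.23 (0.21 to 0.25) and Mcpt4 of -0.26 (-0.41 to -0.10), both under 1.5-fold. Both depended on the cells used. Cma1 was at -0.23 without cluster 1, and with at most 5% mitochondrial UMIs Cma1 was at 1.92 and Mcpt4 at 1.51. Mcpt8 at -0.19 (-0.51 to 0.14) and Tpsab1 at 0.026 (-0.32 to 0.37) did not differ detectably at this depth. Tpsb2 had a log2 ratio of 3.14 (2.40 to 3.99), but its 16 and 145 UMIs came from 6 and 47 cells, and 21 of the 145 from a single cell.

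How the UMIs were spread over cells was examined next, since a library total can rest on many cells or few. Each cell was thinned to 3000 UMIs drawn at random, which left 6090 and 6723 cells. Cma1 was found in 44.2% (42.9 to 45.4) of thinned cells in the Usp18+/f-labelled library and in 43.1% (41.9 to 44.3) in the Usp18+/Δ-labelled library; without thinning it was found in 65.0% and 63.6%. Cpa3 was found in 15.4% (14.5 to 16.3) and 20.7% (19.7 to 21.6), unthinned 25.02% and 33.4%. Mcpt1 was found in 14.3% (13.4 to 15.2) and 7.79% (7.16 to 8.46), unthinned 21.2% and 13.2%, and Mcpt2 in 10.8% (10.0 to 11.6) and 7.63% (7.01 to 8.29), unthinned 18.2% and 13.4%. Thus Mcpt1 and Mcpt2 were found in fewer cells and Cpa3 in more, while the share with Cma1 did not differ beyond counting error, with a log2 ratio of -0.036 (-0.093 to 0.021). That ratio depended on depth: it was 0.079 (0.0091 to 0.150) with cells thinned to 1500 UMIs and -0.13 (-0.18 to -0.078) at 5000 UMIs. The share ratios of Mcpt1 and Mcpt2 were reversed in cells with at most 5% mitochondrial UMIs. They were 0.16 (-0.21 to 0.54) and 0.66 (0.26 to 1.06) there.

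For Mcpt1, Mcpt2 and Cpa3 the share of cells and the UMIs per cell with the gene differed in the same direction, and for Cma1 the ratios were -0.036 and 0.19. Mcpt1 had a log2 ratio of -0.88 (-1.02 to -0.73) in the share of cells and of -0.40 in the mean UMIs of the cells with it, which was 5.50 and 4.17. Cpa3 had 0.42 (0.32 to 0.53) in the share and 0.30 in the mean, which was 2.90 and 3.57. Cells with at least 10 Mcpt1 UMIs of 3000 numbered 106 and 47, or 1.74% and 0.699%. Cells with at least 10 Cpa3 UMIs numbered 58 and 111, or 0.952% and 1.65%. For Cma1 they numbered 255 and 336, or 4.19% and 4.998%.

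Mcpt1 was among the most unevenly spread of all genes. The variance of its thinned UMIs over cells was 31.4 and 25.2 times the mean, rank 3 and rank 5 of 8879 genes, where the median gene had 1.02. Mcpt2 had 20.1 and 16.3 (rank 5 and 9), Cma1 17.2 and 17.3 (rank 7 in both), Mcpt4 8.98 and 7.19 (rank 11 and 12), Cpa3 7.81 and 12.8 (rank 12 and 10) and Tpsg1 4.19 and 5.79 (rank 20 and 14). So all 6 members at 5 CPM or more were within the first 20 genes in both libraries. Cells with 50% of all Mcpt1 UMIs numbered 87 of 6546 in the Usp18+/f-labelled library and 49 of 7073 in the other, while for Cma1 406 and 486 cells were needed. The 1% of cells with most Mcpt1 held 43.7% and 57.8% of its UMIs, against 18.1% and 15.1% for Cma1. UMIs clumped in so few cells vary more than Poisson counts do, and the counting intervals of the library totals are too narrow for that reason.

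**Figure D2:**
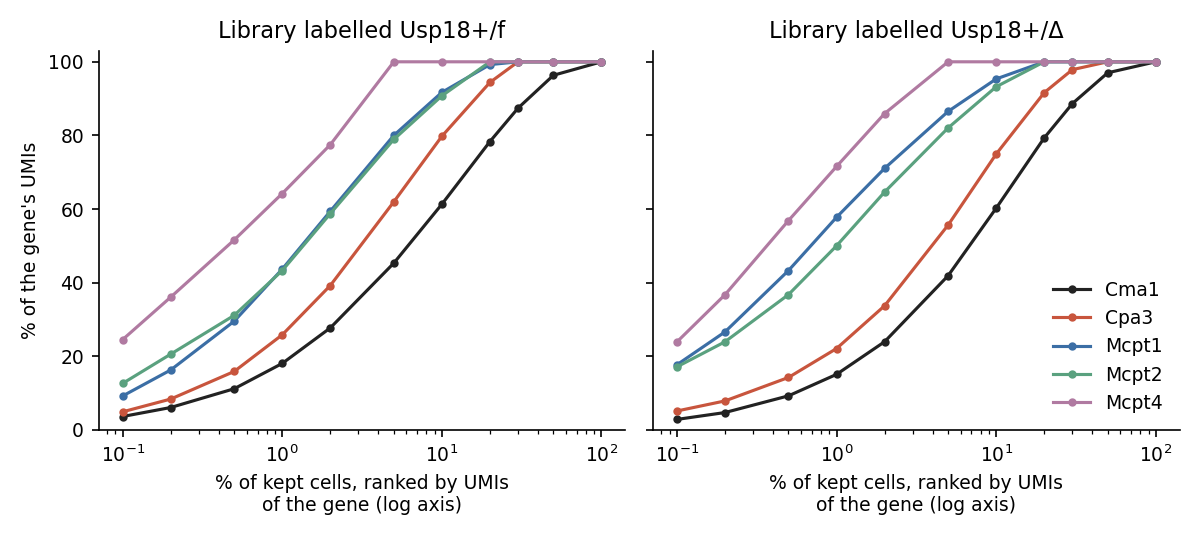
Cumulative share of a gene's UMIs (vertical axis) over the kept cells ranked from most to fewest UMIs of that gene (horizontal log axis, in percent of cells), 1 panel per library, for 5 members. Mcpt4, Mcpt1 and Mcpt2 rise steeply, with 43.7% and 57.8% of Mcpt1 in 1% of cells, and Cma1 is the most evenly spread of the 5.

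The rare members were found in few cells. Mcpt4 was found in 2.61% and 1.64% of thinned cells, Tpsg1 in 1.08% and 1.34%, Mcpt8 in 0.788% and 0.625%, Tpsab1 in 0.673% and 0.253%, and Tpsb2 in 0.049% and 0.164%. The cells with tryptase UMIs were shallow in the Usp18+/Δ-labelled library, with a median depth of 3296 UMIs for Tpsg1, 2613 for Tpsb2 and 2808 for Tpsab1, against 4673, 3650 and 5095 in the other library. Kept cells under 3000 UMIs numbered 456 and 350 and held 1.27% and 1.28% of all UMIs, but 13.7% and 46.5% of the Tpsg1 UMIs and 7.97% and 62.5% of the Tpsab1 UMIs. Cpa3 had 5.14% and 19.6% of its UMIs in them, and Cma1 5.42% and 16.6%. In the cells with at least 3000 UMIs alone, the log2 ratio was -1.27 for Tpsab1, 0.70 for Tpsg1, 0.68 for Cpa3, 0.047 for Cma1, -0.57 for Mcpt4 and -1.30 for Mcpt1. The tryptase and Cma1 ratios between the libraries therefore moved with the shallow cells, and the part of depth in them was not tested.

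Paralogs were detected together in the same cells more often than the product of their shares gives. Mcpt1 and Mcpt2, neighbours on chromosome 14, were found together in 362 thinned cells of the Usp18+/f-labelled library where the product gives 94.0, a ratio of 3.85 (3.48 to 4.26), and in 179 cells of the Usp18+/Δ-labelled library where it gives 40.0, a ratio of 4.48 (3.85 to 5.17). Of the cells with Mcpt1, 41.6% and 34.2% also had Mcpt2. Mcpt1 and Mcpt4 were found together in 100 and 57 cells, at ratios of 4.40 and 6.65, and Mcpt2 and Mcpt4 in 89 and 53 cells, at 5.19 and 6.31. Among all genes at 5 CPM or more, Mcpt2 ranked 4 and 3 of 8878 by its ratio with Mcpt1, with Tpsg1 and Mcpt4 above it in both libraries, where the median gene had 0.997 and 0.989.

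Co-detection extended across the families. Of the 36 pairs, 26 and 25 had an expected number of at least 1 cell, and all of these had ratios above 1 at this depth (1 of 23 fell to 0.96 at 5000 UMIs in the Usp18+/f-labelled library), from 1.59 to 14.9 in the Usp18+/f-labelled library and from 1.65 to 15.6 in the Usp18+/Δ-labelled library. Mcpt1 and Cpa3, which differed in opposite directions between the libraries, were found together in 263 cells where 134 were expected, a ratio of 1.96, and in 239 where 108 were expected, a ratio of 2.21. Cma1 and Cpa3 were found together in 671 and 994 cells, at 1.62 and 1.66. A ratio cannot pass 1 divided by the share of the commoner gene, so pairs with the widely found Cma1 are held low. The Pearson correlation over thinned cells was 0.39 and 0.52 for Cma1 with Cpa3, against 0.25 and 0.29 for Mcpt1 with Cpa3. Tpsg1 and Tpsab1, both in the tryptase locus, were found together in 23 and 14 cells where 0.44 and 0.23 were expected, which is 56.1% and 82.4% of the cells with Tpsab1. Cells of 1 library are not replicates, so these ratios describe the cells of each library and carry no test.

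**Figure D3:**
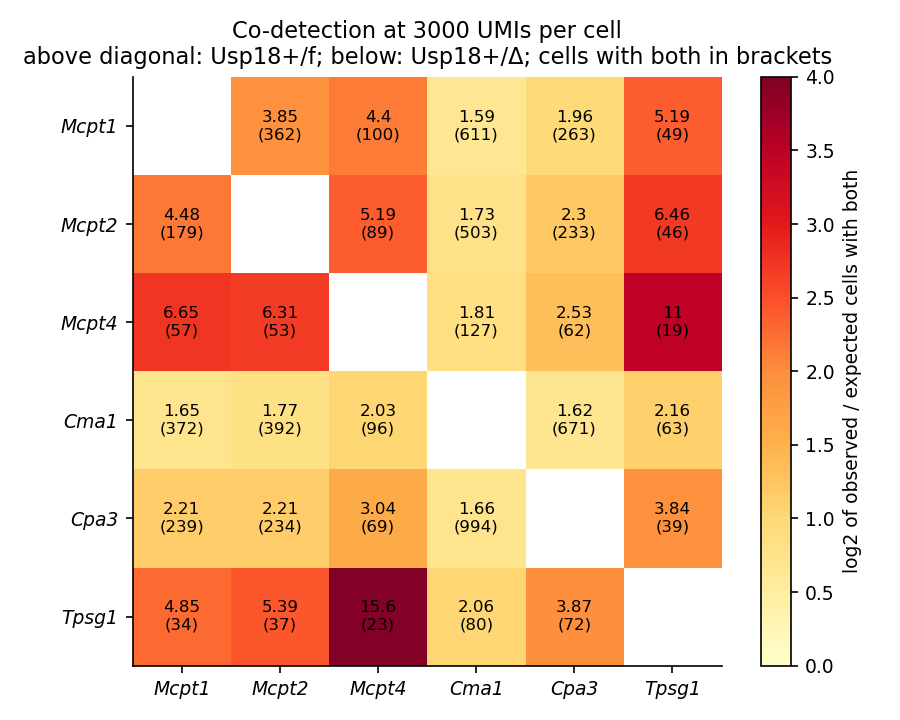
Observed over expected number of cells with both genes of a pair at 3000 UMIs per cell, for the 6 members at 5 CPM or more; colour is its log2, numbers are the ratio with the cells that had both in brackets, the Usp18+/f-labelled library above the diagonal and the Usp18+/Δ-labelled library below. All 30 ratios are above 1, and the lowest ratio in each library is that of Mcpt1 with Cma1. Pairs with Cma1, found in 44.2% and 43.1% of cells, are held low because a ratio cannot pass 1 divided by that share.

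The proportion of the 2 mucosal chymases varied from cell to cell. In the 206 and 93 cells with at least 20 UMIs of Mcpt1 and Mcpt2 together, Mcpt1 made up a median of 71.3% and 65.2% of the sum. The standard deviation over cells was 28.4 and 33.1 percentage points, where binomial counting alone gives 7.90 and 8.15. Mcpt1 made up over 90% in 54 and 24 of these cells and under 10% in 12 and 11. Cells with nearly pure Mcpt1, nearly pure Mcpt2 and mixtures were thus all present in both libraries. For Mcpt1 against Cpa3, Mcpt1 made up over 90% of the sum in 92 of 187 cells in the Usp18+/f-labelled library and in 22 of 154 cells in the Usp18+/Δ-labelled library, and under 10% in 26 and 73.

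The number of members per cell differed little between the libraries. No member was found in 46.2% and 48.0% of thinned cells, exactly 1 in 31.9% and 31.1%, 2 in 13.4% and 14.2%, and 3 in 4.94% and 4.34%. In the Usp18+/f-labelled library 3 cells held 8 of the 9 members, and 1 cell with the other label held all 9 among its 3000 UMIs. What differed was which members were found. Cells with 2 or more UMIs of Mcpt1 and Mcpt2 together and under 2 of Cpa3 made up 7.91% (7.25 to 8.62) and 3.20% (2.79 to 3.65). Cells with 2 or more Cpa3 UMIs and under 2 of the pair made up 4.14% (3.65 to 4.67) and 8.54% (7.88 to 9.23). Cells with both made up 2.79% (2.39 to 3.24) and 2.37% (2.02 to 2.76). The limit of 2 UMIs cuts through a continuous range, with 516 and 656 cells at exactly 1 Cpa3 UMI.

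The opposite directions were also seen in classes of cells set by their UMIs of the other gene. Among cells without Mcpt1, Cpa3 was at 102 and 183 CPM, a log2 ratio of 0.84 (0.75 to 0.93), and among cells with at least 10 Mcpt1 UMIs, 106 and 47 cells, it was at 833 and 3078 CPM, 1.89 (1.66 to 2.11). Among cells without Cpa3, Mcpt1 was at 171 and 38.6 CPM, -2.15 (-2.28 to -2.03), and among cells with at least 10 Cpa3 UMIs, 58 and 111 cells, it was at 2891 and 1492 CPM, -0.95 (-1.14 to -0.77). The class of at least 10 UMIs has no upper limit, and Cpa3 itself was at 5115 and 6108 CPM in its own, a log2 ratio of 0.26 (0.14 to 0.37).

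The genes most like a member over cells were named for the 7 members found in at least 1% of cells of both libraries. Likeness was the lower of the 2 Pearson correlations over cells, 1 per library, of log1p of UMIs per 10000, among 5983 or 5984 genes of 20 CPM or more on average. Mcpt1 was most like Mcpt2 (r 0.63 and 0.50), followed by Cma1, Serpinb1a (an inhibitor of granule serine proteases), Cpa3 and Csf2rb2 (a receptor subunit for interleukin 3), and Mcpt2 had the same 4 genes and Mcpt1. Mcpt4 was most like Mcpt1 (0.39 and 0.34), followed by Serpinb1a, Mcpt2, Cma1 and Csf2rb2. Cma1 was most like Serpinb1a (0.47 and 0.54), followed by Lgals3, Gsn, Cpa3 and Vim. Cpa3 was most like Cma1 (0.43 and 0.61), followed by Fcer1a (the IgE receptor alpha chain), Csf2rb2, Slc18a2 (the transporter that loads histamine into granules) and the noncoding RNA Neat1. Mcpt8 was most like Serpinb1a, Cma1, Cpa3, Mcpt2 and Fcer1a, and Tpsg1 like Serpinb1a, Mcpt1, Csf2rb2, Id2 and Cma1. These correlations are over cells of sparse counts that share a library and its depth.

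The cells were then grouped without the 9 members, by 2000 other variable genes, into 9 clusters. None was given a cell type name. Cluster 1, led by Serpinb1a, Csf2rb2, Ypel3, Hbb-bt and Ahnak, held 971 and 1768 cells and 57.0% and 65.6% of the Mcpt1 UMIs. It also held 54.2% and 70.1% of the Cpa3 UMIs, 38.4% and 58.2% of the Cma1 UMIs and 85.1% and 95.2% of the Tpsg1 UMIs. Its levels were 1049 and 339 CPM for Mcpt1, 558 and 842 CPM for Cpa3 and 1812 and 1993 CPM for Cma1. The other 5 clusters with at least 50 cells in each library, led among others by genes of S phase and mitosis, were at 46.9 to 112 and 17.7 to 51.6 CPM for Mcpt1. Cluster 6, of 308 and 43 shallow cells with medians of 1056 and 964 UMIs, had Mcpt1 in 1.95% and 2.33% of its cells and Cma1 in 17.9% and 11.6%. Cluster 8, of 7 and 40 cells, was led by S100a9, S100a8, Camp, Lcn2 and Ngp, but S100a9 was found in only 2 and 13 cells of the libraries, so most of its cells are not shown to be neutrophils, which the Lin- sort would remove. No cluster is thus known to lack the proteases, a background share could not be measured, and the part of free RNA in single UMIs was not tested. Within the Usp18+/f-labelled library, Mcpt1 UMIs per Cma1 UMI were 0.58 in cluster 1 and 0.22 to 0.32 in the other clusters of that size, and within the Usp18+/Δ-labelled library 0.17 and 0.097 to 0.15.

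Within clusters, the lower Mcpt1 and Mcpt2 held in each of the 6 clusters with at least 50 cells per library. Mcpt1 had log2 ratios from -2.06 to -0.66 and Mcpt2 from -1.69 to -0.86, all with intervals below 0. Mcpt4 was lower in all 6, from -2.41 to -0.36, with 4 intervals below 0. Cpa3 was higher in 5 of 6, with the intervals of all 5 above 0, and in cluster 4 it was at -0.10 (-0.35 to 0.15). Among the 6, Cma1 was higher only in cluster 1, at 0.14 (0.10 to 0.17), and lower in 3 others with intervals below 0, from -0.59 to -0.19. Cluster 7, led by Ifit1, Mx1 and Isg15, was under that size, with 7 and 86 cells, and went the other way. It had 1 and 79 Mcpt1 UMIs, 3.04 (0.52 to 8.36), and 1 and 184 Mcpt2 UMIs, 4.26 (1.77 to 9.57). Cma1 was at 2.06 (1.27 to 2.97) there, from 13 and 518 UMIs. Leaving out cluster 1, the log2 ratio was -0.23 for Cma1, 0.40 for Cpa3, -0.14 for Tpsg1, -1.36 for Mcpt1 and -1.41 for Mcpt4. Of the 4 members that then had a mean of at least 5 CPM, 0 were at least 1.5-fold higher, where 0.715% of 8815 genes were, and 2, Mcpt1 and Mcpt2, were at least 1.5-fold lower, where 0.193% were. Tpsb2, under that limit, had 1 and 4 UMIs outside cluster 1.

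**Figure D4:**
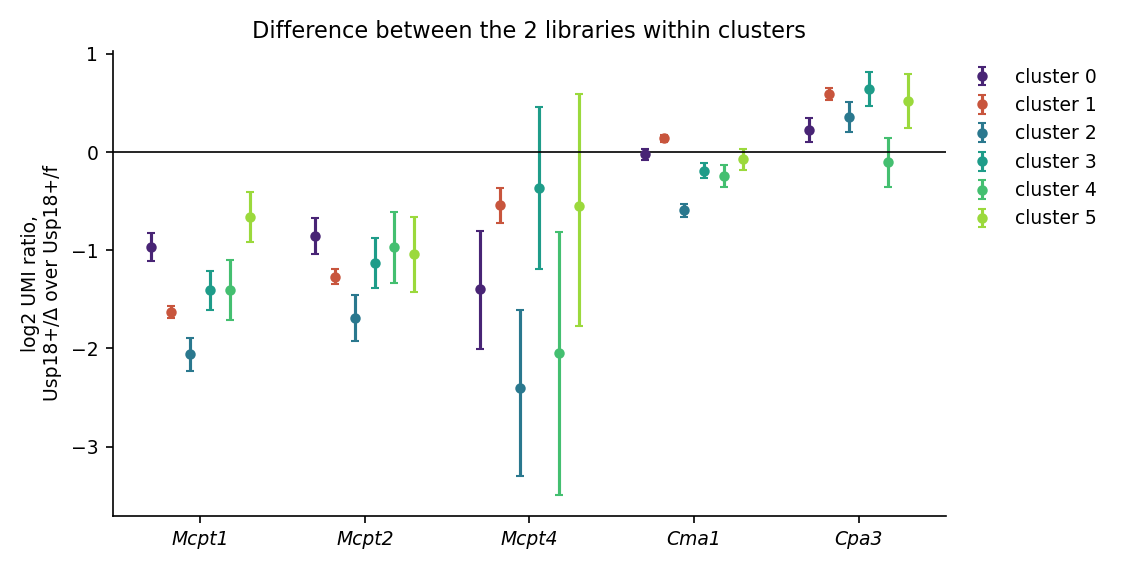
Log2 UMI ratio between the libraries (vertical axis) for 5 members within each of 6 clusters; points are clusters and bars are exact 95% counting intervals. All Mcpt1 and Mcpt2 points lie below 0, 5 of 6 Cpa3 points above, and 5 of 6 Cma1 points below.

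Levels were also read along the cell cycle. Thinned cells were divided into 4 parts at the quartiles of the share of UMIs from 94 S phase and G2/M phase genes. In the lowest part (1226 and 1850 cells) Mcpt1 was at 852 and 287 CPM, Mcpt2 at 498 and 256, Cma1 at 1549 and 1605 and Cpa3 at 490.2 and 689 CPM. In the highest part (1813 and 1550 cells) Mcpt1 was at 123 and 31.6 CPM, Cma1 at 416 and 286 and Cpa3 at 53.5 and 65.2 CPM. Protease mRNA was thus highest in cells with the least cycle mRNA. Mcpt1 was lower in the Usp18+/Δ-labelled library in each of the 4 parts, from -1.96 to -0.61, and Cpa3 higher in each, from 0.14 to 0.55, with 3 of 4 intervals above 0. The cuts run through a continuous range, with 23.3% and 24.0% of cells within 0.1 percentage points of one.

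The direction of Mcpt1 and Mcpt2 depended on the mitochondrial share of the cell. Among kept cells with over 5% mitochondrial UMIs, 5533 and 6341 cells, Mcpt1 was at 176 and 52.8 CPM, a log2 ratio of -1.74 (-1.80 to -1.68), and Mcpt2 at 92.9 and 36.9 CPM, -1.33 (-1.41 to -1.26). Among those with at most 5%, 1013 and 732 cells, Mcpt1 was at 213 and 418 CPM, 0.98 (0.87 to 1.08), and Mcpt2 at 154 and 316 CPM, 1.04 (0.92 to 1.16). Cpa3 was higher in both, at 0.58 (0.53 to 0.63) over 5% and at 2.73 (2.60 to 2.85) up to 5%, where it was at 94.6 and 626 CPM. Cma1 was at -0.033 (-0.058 to -0.0073) over 5% and at 1.92 (1.86 to 1.99) up to 5%.

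In the cells with at most 5% mitochondrial UMIs all 9 members had a mean of at least 5 CPM and all 9 were at least 1.5-fold higher in the Usp18+/Δ-labelled library, where 6.80% of 8920 genes were. Mcpt8, at 4.66 and 11.99 CPM, and Tpsb2, at 0.155 CPM (1 UMI) and 10.5 CPM, reached that mean only through the library where they were high, so their part in this count is no support. Over 5%, 1 of 6 members, Tpsg1, was at least 1.5-fold higher, where 0.924% of 8875 genes were, but at 3.82 and 6.67 CPM it reached the mean of 5 CPM only through the library where it was high and is no support, and 3 of 6, Mcpt1, Mcpt2 and Mcpt4, were at least 1.5-fold lower, where 0.237% were. Finer ranges differed by member. From the range of 5 to 6% to the range of 8 to 10%, Mcpt1 log2 ratios ran from -1.32 to -2.29, while in the range of 3.5 to 5% the ratio was 0.80 and up to 3.5% it was 1.94. Mcpt4 was at 0.11 (-0.24 to 0.45) in the range of 5 to 6%, and Cma1 ran from 0.37 at 5 to 6% to -0.45 at 8 to 10%. The cells with at most 5% held 13.1% of all Mcpt1 UMIs in the Usp18+/f-labelled library and 40.8% in the Usp18+/Δ-labelled library.

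**Figure D5:**
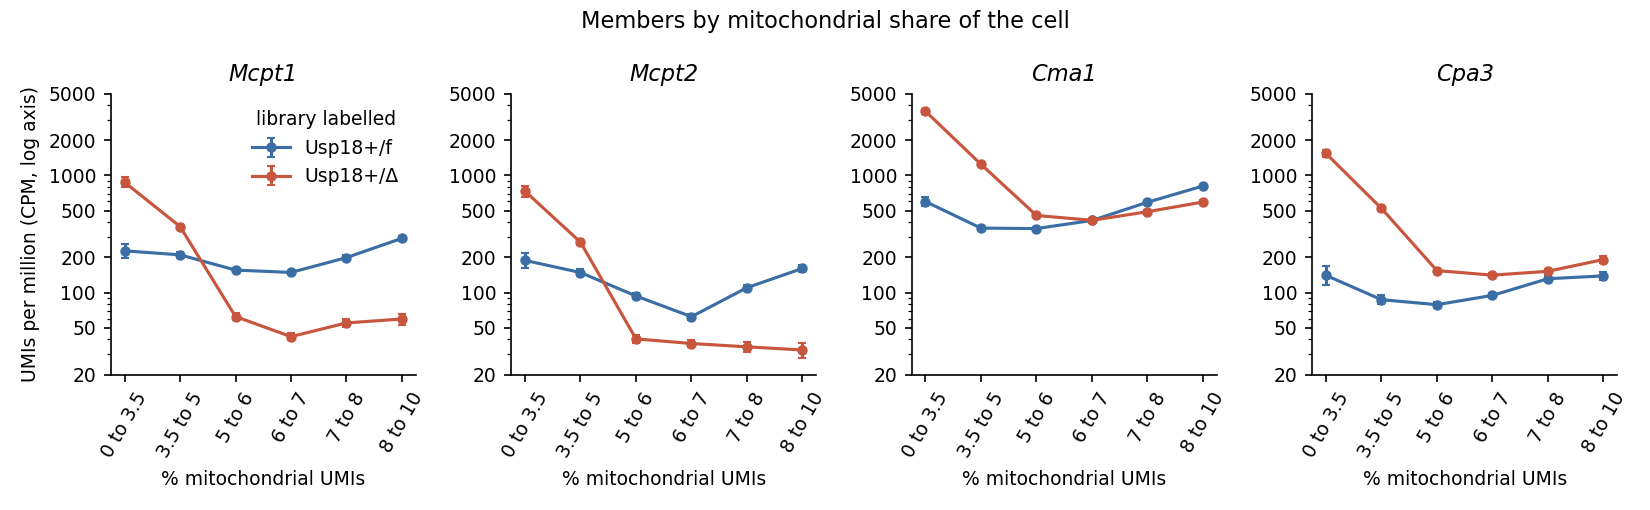
Level of 4 members in CPM (log axis) by the percentage of mitochondrial UMIs of the cell (horizontal axis, 6 ranges), 1 line per library, with exact Poisson 95% intervals. In the Usp18+/Δ-labelled library all 4 genes rise below 5%, Mcpt1 to 367 and 875 CPM, so that the lines of Mcpt1 and Mcpt2 cross.

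Clusters differed in these cells too. Of the cells with at most 5%, cluster 1 made up 98 of 1013 in the Usp18+/f-labelled library and 351 of 732 in the Usp18+/Δ-labelled library. Within cluster 1, Mcpt1 was lower on both sides of the limit, at 1918 and 1188 CPM up to 5%, -0.69 (-0.81 to -0.57), and at 969.5 and 185 CPM over 5%, -2.39 (-2.47 to -2.30). Mcpt2 was likewise at -0.67 (-0.81 to -0.54) and -1.96 (-2.06 to -1.86). Cpa3 was higher on both sides, at 1.17 (1.02 to 1.33) and 0.30 (0.23 to 0.37). In the other clusters up to 5%, 915 and 381 cells, Mcpt1 was at 75.5 and 81.0 CPM, 0.10 (-0.12 to 0.32), not detectably different, while Mcpt2 was at 51.7 and 62.6 CPM, 0.28 (0.015 to 0.54), still higher. The reversed Mcpt1 ratio of all cells up to 5% went with a larger number of cluster 1 cells among them, whose median depth was 4411 and 3838 UMIs.

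Other genes of the mast cell program were compared by list. Of 12 IgE receptor and mast cell receptor genes, 8 had a mean of at least 5 CPM, 2 were at least 1.5-fold higher, where 1.17% of all genes were, and 0 lower, with a median log2 ratio of 0.060. Fcer1a was at 174 and 264 CPM (0.60, 0.57 to 0.64) and Csf2rb2 at 31.4 and 57.6 CPM (0.87, 0.79 to 0.96), while Ms4a2 at 516 and 506 CPM and Il1rl1, the interleukin 33 receptor, at 568 and 575 CPM were under 1.5-fold. Fcer1g, the gamma chain that the receptor needs at the surface, had only 41 and 113 UMIs (1.43, 0.90 to 1.98). Of 12 granule and mediator genes, 10 had a mean of at least 5 CPM and 0 passed 1.5-fold in either direction, where 98.6% of all genes did not either, with a median of 0.080. Among them the granule proteoglycan Srgn was at 1996 and 1915 CPM and Vamp8, which acts in granule fusion, at 518 and 509 CPM.

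Regulators and neighbouring proteases were compared last. Of 15 regulators of mast cells and basophils, 14 had a mean of at least 5 CPM and 0 passed 1.5-fold, where 98.6% of all genes did not either, with a median of -0.070. Runx1 was at 568 and 539 CPM and Gata2 at 203 and 184 CPM. Of 10 granzyme and protease genes that neighbour the chymases, 6 granzyme genes had 0 UMIs in both libraries, and Ctsg (cathepsin G) alone had a mean of at least 5 CPM, at 5.01 and 6.40 CPM, with a ratio of 0.35 (0.13 to 0.58). None of 7 other tryptase-family genes reached 5 CPM, the highest being Prss34, a basophil protease, with 18 and 25 UMIs. Of 7 neutrophil granule proteases and proteins, only Ctsg reached 5 CPM.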

How the data were processed

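Single-cell RNA was measured in 2 libraries, 1 for either label, from 3 pooled mice each. The authors used 10x Genomics 3′ V3 chemistry, Cell Ranger 3.0.2 (per the file headers) and mm10, and deposited raw UMI counts per gene and cell barcode. Cells needed 500 or more genes and no more than 10% mitochondrial UMIs. Scrublet (scanpy 1.11.5, expected doublets 6%) marked 0.0436% and 0.0270% of cells, under 0.5%, so its automatic call was not used and the 5% of cells with the highest scores were removed (340 and 333). Summed UMIs were scaled to CPM. There is no replicate library, so no p-value was computed: exact Poisson, Clopper-Pearson and conditional binomial intervals of 95% and score intervals for ratios of shares (scipy 1.17.1, statsmodels 0.14.6) cover counting error only. Shares and co-detection used cells thinned to 3000 UMIs, leaving out 456 and 350 cells. Clusters came from 2000 variable genes without the members, 30 principal components, 20 neighbours and Leiden resolution 0.8 (leidenalg 0.10.2). The ratios were tested on simulated library totals drawn as Poisson counts. Those totals lack the clumping over cells seen here, so the test does not show that the intervals hold for these data. The named genes were the 9 members, list genes past 1.5-fold or among the 2 most abundant, and the 5 genes most like a member. Genes named beyond that rule (Usp18, Kit, Hdc, Mpo, Elane, Ptprc, Fcer1g, Mcpt9, markers and genes leading clusters) were chosen after their values were seen. The members and lists were chosen with earlier results of these data known. Alternatives varied the cell filter, doublets, averaging, scaling, the densest cells, thinning and the detection limit. The authors' later filters were not used here.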

Additional observations from a re-analysis of the deposited data

Results flagged for a closer look

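The 735 and 760 barcodes that the filters left out, which no comparison above used, held member UMIs that differed between the libraries. The log2 ratio of the Usp18+/Δ-labelled to the Usp18+/f-labelled library was 1.04 (0.59 to 1.51) for Mcpt4, from 60 and 124 UMIs, opposite to its -0.26 in the kept cells. It was 1.07 (0.91 to 1.22) for Cpa3, from 511 and 1075 UMIs, and 1.78 (1.003 to 2.62) for Tpsg1, from 18 and 62 UMIs. For Mcpt8 it was 2.41 (0.61 to 4.83), but from only 3 and 16 UMIs. Tpsb2 had 0 and 14 UMIs; against the limit of 3 counts per library that a count of 0 allows, it was at least 4.65-fold higher, a log2 bound of 2.22 that takes the 14 UMIs as exact, and the lower end of its counting interval was 1.72. Mcpt1 and Mcpt2 were lower there too, at -1.88 (-2.05 to -1.71) and -1.42 (-1.63 to -1.22).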

How the results depend on the processing

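Of 195 alternative values, 94 stayed within the error of the value reported, 91 moved and 10 reversed. The mitochondrial limit changed most. With at most 5% mitochondrial UMIs the log2 UMI ratio was 0.98 for Mcpt1, 1.04 for Mcpt2 and 1.51 for Mcpt4, all reversed, 1.92 for Cma1, 2.73 for Cpa3 and 2.90 for Tpsg1, where 6.80% of 8920 genes were at least 1.5-fold higher and 2.94% lower; of the 6 members at 5 CPM over all kept cells, 6 were higher and 0 lower. The log2 ratio of the share of cells there was 0.16 for Mcpt1, 0.66 for Mcpt2, 0.62 for Mcpt4, 0.49 for Cma1 and 1.39 for Cpa3, and the co-detection ratios with the Usp18+/Δ label were 3.41 for Mcpt1 with Mcpt2 and 1.90 for Mcpt1 with Cpa3. The following 3 restrictions were chosen after seeing the data. Over 5% mitochondrial UMIs the UMI ratios were -1.74 for Mcpt1, -1.33 for Mcpt2, -0.033 for Cma1 (reversed), 0.58 for Cpa3 and 0.81 for Tpsg1, with 1 member higher, Tpsg1, which passed 5 CPM only through the library where it was high. Without cluster 1 they were -1.36, -0.96, -0.23 (reversed), 0.40 and -0.14 (reversed) in that order; of the same 6 members 0 were then higher, where 0.715% of 8815 genes were, and Tpsb2, under 5 CPM, had 1 and 4 UMIs. From 3000 UMIs per cell they were -1.30, -0.84, 0.047, 0.68 and 0.70. Leaving out barcodes found in both libraries, also added then, moved none of these.

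Averaging CPM over cells gave -0.91 for Mcpt1, -0.59 for Mcpt2, 0.54 for Cma1, 1.24 for Cpa3, 1.88 for Tpsg1 and 0.012 for Mcpt4 (reversed). Without the 1% of cells with most of the gene they were -1.60, -0.95, 0.27, 0.99 and 2.96 for the first 5, and Tpsb2 and Tpsab1 had no value. All deposited barcodes gave -1.21 for Mcpt1 and 0.20 for Cma1. The share of cells with Mcpt1 had a ratio of -0.68 without thinning and -1.18 from 2 UMIs per cell, and that of Mcpt2 -0.86 from 2 UMIs. For Cma1 the share ratio was 0.079 at 1500 UMIs, -0.13 at 5000 and 0.035 from 2 UMIs, and for Cpa3 0.56, 0.30 and 0.65. Co-detection of Mcpt1 and Mcpt2 was 5.12 and 5.84 at 1500 UMIs, 3.17 and 3.75 at 5000, 2.48 and 2.80 without thinning and 7.70 and 12.7 from 2 UMIs. For Mcpt1 and Cpa3 it was 2.497 and 2.76 at 1500 UMIs, 1.59 and 1.57 without thinning, 3.93 and 4.32 from 2 UMIs, and with the Usp18+/Δ label 1.80 at 5000. The causes were not tested. Depth limits the tryptases and Mcpt8, which rest on few UMIs. No paired analysis was possible because there is only 1 library with either label.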
